A study of Mus musculus with 9 samples.

Results

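The matrix metalloproteinase genes Mmp2, Mmp3, Mmp9, Mmp10, Mmp11, Mmp13, Mmp14 and Mmp19 and the inhibitor genes Timp1 and Timp3 were followed through an RNA-seq series of mouse cells. The study describes the cells as overexpressing the calcium-binding protein S100A8. These 10 genes were taken by symbol from the 19240 genes of the expression table, and each symbol had 1 entry. The series holds 9 libraries in 3 groups of 3. OEA8_Ctrl is labelled as the overexpression control. By the study's account OEA8_67 carries S100A8 with a point mutation at residue 67, and OEA8_69 carries S100A8 with a point mutation at residue 69. The labels leave it unsaid whether the control expressed unmutated S100A8 or an empty vector, whereas in the study's account the reference cells overexpress S100A8. The cells are labelled as hematopoietic stem cells, but the study describes mouse embryonic fibroblasts, for which its methods give lentiviral infection and puromycin selection, and no source says that replicates were separate cultures, so the p-values reflect the spread among these 9 libraries alone, which could be technical.

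Matrix metalloproteinases are zinc-dependent enzymes that cut collagens, proteoglycans, growth factors and other proteins outside the cell. Most are secreted as inactive precursors and are switched on when a propeptide is removed, and Timp proteins block the active enzymes by binding their catalytic site. Fibroblasts are a main source of these enzymes in connective tissue, and several of the genes, Mmp3, Mmp9 and Mmp13 among them, are known to respond to inflammatory cytokines such as interleukin 1, tumour necrosis factor and interleukin 17, in part through AP-1, a transcription factor made of Fos and Jun proteins.

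Mmp3, Mmp10 and Mmp13 lie in the same gene cluster on chromosome 9, and the stretch of DNA before the start of each is shown because all 3 genes were lowest in OEA8_69, as described further on. Mmp1a, a neighbour from the same cluster that is not among the 10 genes, and Mmp14, which was called in no comparison, are shown beside them. The sequences are from RefSeq on GRCm38, cover the 120 bases before the annotated start and the first 30 bases from it, and have the AP-1 motif in capitals (TGAGTCA, or TGACTCA when read on the other strand).
Mmp3, chr9:7445702-7445851: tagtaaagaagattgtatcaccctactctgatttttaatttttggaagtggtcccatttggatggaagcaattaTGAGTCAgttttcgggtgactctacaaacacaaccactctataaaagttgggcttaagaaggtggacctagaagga
Mmp10, chr9:7502222-7502371: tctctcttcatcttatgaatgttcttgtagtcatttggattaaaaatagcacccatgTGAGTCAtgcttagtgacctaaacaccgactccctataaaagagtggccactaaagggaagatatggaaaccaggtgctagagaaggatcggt
Mmp13, chr9:7272394-7272543: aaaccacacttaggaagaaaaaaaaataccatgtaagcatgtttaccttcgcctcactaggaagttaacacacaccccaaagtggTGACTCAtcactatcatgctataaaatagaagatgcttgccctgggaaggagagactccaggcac
Mmp1a, chr9:7464021-7464170: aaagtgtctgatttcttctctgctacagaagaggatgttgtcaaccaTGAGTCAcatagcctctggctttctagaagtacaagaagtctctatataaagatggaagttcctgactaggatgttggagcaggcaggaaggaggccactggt
Mmp14, chr14:54431478-54431627: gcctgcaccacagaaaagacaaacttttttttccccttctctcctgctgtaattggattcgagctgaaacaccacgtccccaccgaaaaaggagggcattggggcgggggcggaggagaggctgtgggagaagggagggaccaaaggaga
All of these genes are on the forward strand.

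Promoter windows of 300 bases, 250 of them before the start, could be matched for 7 of the 10 genes (Mmp3, Mmp10, Mmp11, Mmp13, Mmp14, Timp1 and Timp3) and for Mmp1a. The exact 7-letter AP-1 motif, searched on both strands, stood in the windows of Mmp3, Mmp10 and Mmp13 and of Mmp1a. It was not found in those of Mmp11, Mmp14, Timp1 and Timp3. Near matches were not counted in any window. The Timp1 window holds such a near match, TGAGTAA, after the annotated start, and the Mmp11 window holds TAACTCA before it. The windows were not searched for others. Of all 32851 mouse promoter windows of this length, 5.20% hold the exact motif. In Mmp3 it begins 46 bases before the start, in Mmp10 63 bases, in Mmp13 35 bases and in Mmp1a 73 bases. The letters TATAAA, the core of the TATA box, were searched on the gene's strand in the last 50 bases before the start. They were present in the same 4 genes against 2.63% of all windows. They begin 7 bases before the start in Mmp3, 29 in Mmp10, 16 in Mmp13 and 28 in Mmp1a. All these distances depend on where each start is annotated, so they may not be comparable between genes. The motif AGGAAG, bound by Ets factors, was in 5 of the 7 windows (Mmp3, Mmp13, Mmp14, Timp1 and Timp3) and in 35.4% of all windows, and does not overlap the AP-1 letters. A match is a description of the letters in these windows and no measurement of binding was made.

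**Figure D1:**
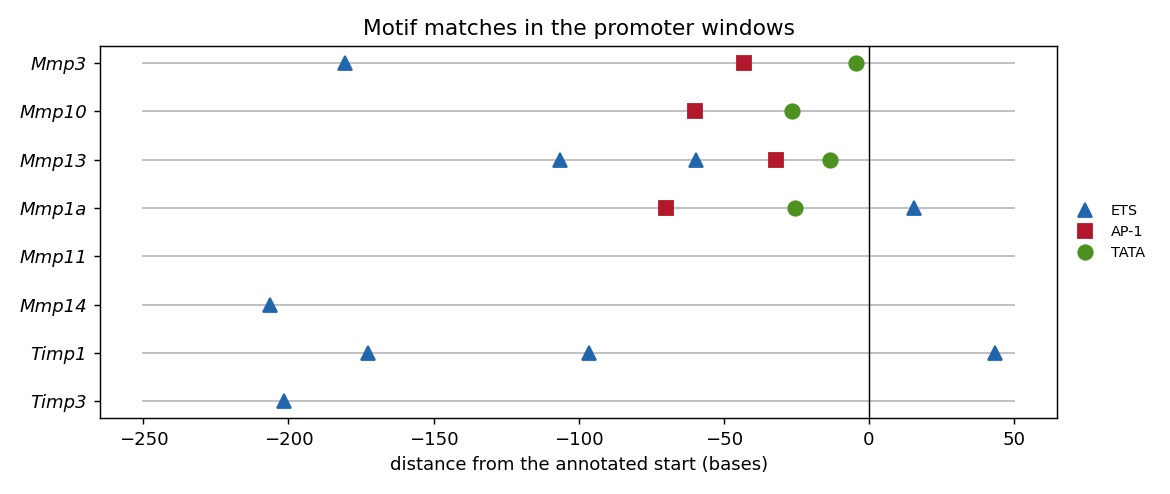
Matches to the AP-1 motif (squares), the Ets motif (triangles) and the TATA letters (circles) in the promoter windows of 7 of the 10 genes and of Mmp1a, by distance in bases from the annotated start (vertical line). The exact AP-1 and TATA matches stand together in Mmp3, Mmp10, Mmp13 and Mmp1a, with AP-1 further from the start. Neither exact match was found in the other 4 windows, and near matches are not drawn.

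Expression is given as FPKM, computed by the authors, in which the fragments of a gene are divided by its transcript length and by the total mapped in that library, so that levels can be compared between genes of different length. In OEA8_Ctrl the levels ran from Timp1 (760 ± 47.3 FPKM, SD, n = 3) through Mmp2 (522 ± 7.10), Mmp14 (220 ± 4.65), Mmp3 (162 ± 6.60), Timp3 (73.7 ± 4.79), Mmp11 (58.1 ± 0.983), Mmp9 (25.5 ± 1.2), Mmp19 (20.5 ± 0.315) and Mmp13 (13.7 ± 0.746) to Mmp10 (2.42 ± 0.423). The 10 genes thus span levels from an abundant secreted inhibitor to a stromelysin near the lower limit of what was tested. No neighbours in this order overlapped in their libraries within OEA8_Ctrl or within OEA8_67. Within OEA8_69 the libraries of Timp1 (575 to 610 FPKM) and Mmp2 (558 to 581 FPKM) overlapped, and no other neighbours did. Mmp9 stood above Mmp19 in OEA8_Ctrl and below it in both mutant groups.

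The libraries resembled each other closely, with a correlation across genes of at least 0.9907 between any pair. Their FPKM values summed to between 469909 and 501342, highest in OEA8_Ctrl replicate 3, and the table does not give read depth. Fibroblast genes were plainly present, with 13 of 14 listed markers at 1 FPKM or more and a median of 164 FPKM, although Fap, an activated-fibroblast protease, averaged 0.121 FPKM. Ptprc, the CD45 gene carried by nearly all blood cells, averaged 0.00444 FPKM, as did the stem cell receptor gene Kit, which goes against the label of hematopoietic stem cells. Of the 15 listed stem and progenitor genes 7 did reach 1 FPKM (Ly6a, Gata2, Cd34, Hlf, Procr, Runx1 and Meis1). The neutrophil protease gene Elane was at 0 in every library and the macrophage gene Adgre1 averaged 0.00222 FPKM. S100a8 itself was at 4.69 ± 1.13 FPKM in OEA8_Ctrl, 5.58 ± 0.909 in OEA8_67 and 5.14 ± 1.27 in OEA8_69 (adjusted p = 0.449 and 0.745 for the mutants against the control). All its libraries lay below those of Mmp13, whose mean over all libraries exceeded that of 45.7% of tested genes. S100a8 was thus not abundant in any group, and its level neither shows overexpression nor checks the labels.

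Mmp3, Mmp9 and Mmp13 fell in both mutants, and Mmp3 and Mmp13 were lower still in OEA8_69 than in OEA8_67. Mmp10 fell in OEA8_69, Mmp11 in OEA8_67, and the inhibitor gene Timp1 in both. Each comparison was tested with limma on log2(FPKM + 1) across the 12012 genes that averaged at least 0.5 FPKM, with Benjamini-Hochberg adjustment over all of these genes, and a gene was called when its adjusted p was under 0.05. All 10 genes passed this filter. In OEA8_67 against OEA8_Ctrl 5 genes were lower (Mmp3, Mmp9, Mmp11, Mmp13 and Timp1), and 0 were higher, where 7.88% of all tested genes were called, 4.66% lower and 3.21% higher. In OEA8_69 against OEA8_Ctrl 5 were lower (Mmp3, Mmp9, Mmp10, Mmp13 and Timp1), and 0 were higher, beside 9.79% of tested genes called, 5.24% lower and 4.55% higher. Between the mutants, Mmp3, Mmp10 and Mmp13 were lower in OEA8_69 and Mmp2 and Mmp11 were higher, beside 3.16% of tested genes called, 1.27% lower and 1.89% higher. The median log2 fold change of the 10 genes was -0.21, -0.25 and -0.05 in the 3 comparisons, and that of all tested genes 0.0176, 0.0212 and -0.00191.

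Separation of the libraries is a looser description than the test. Libraries of OEA8_67 and OEA8_Ctrl did not overlap for 7 of the 10 genes, 6 lower and 1 higher, which was true of 28.2% of all tested genes (11.7% lower, 16.5% higher). For OEA8_69 against OEA8_Ctrl this held for 8 genes, 6 lower and 2 higher, beside 27.5% of tested genes (12% lower, 15.4% higher). For OEA8_69 against OEA8_67 it held for 7 genes, 4 lower and 3 higher, beside 31.6% (16.9% lower, 14.7% higher).

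**Figure D2:**
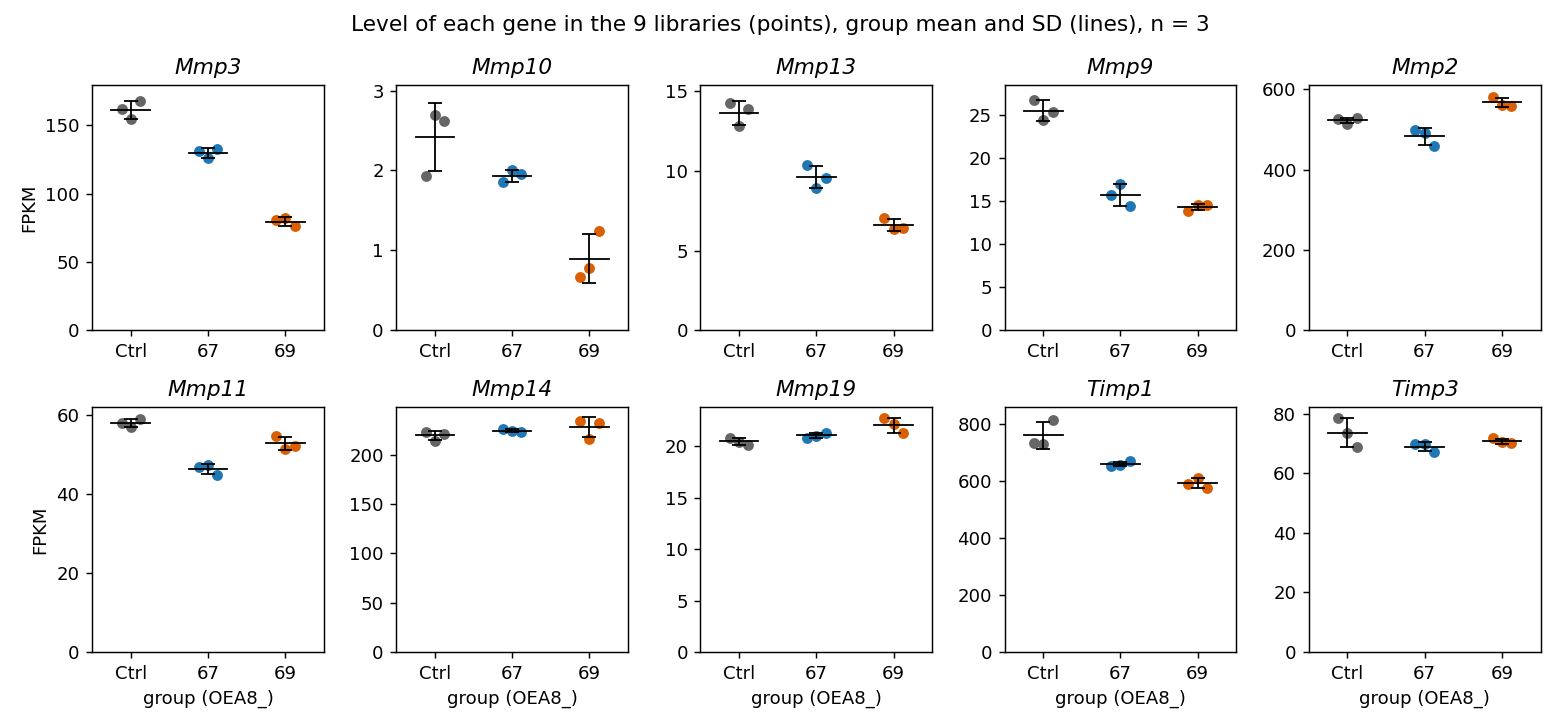
FPKM of each of the 10 genes in the 9 libraries (points), with the group mean and SD (n = 3), on axes that start at 0 and differ between genes. Mmp3, Mmp10 and Mmp13 are lowest in OEA8_69, Mmp9 is low in both mutants, and Mmp14, Mmp19 and Timp3 stay near their control level.

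Mmp3 (stromelysin-1, chr9:7445822-7455975) cuts many matrix proteins and can activate other metalloproteinase precursors. Its libraries stood at 162, 155 and 168 FPKM for OEA8_Ctrl, 131, 126 and 132 FPKM for OEA8_67, and 80.4, 82.3 and 76.0 FPKM for OEA8_69. The 3 groups formed 3 separate levels, with every OEA8_69 library below every OEA8_67 library. Relative to OEA8_Ctrl the mean FPKM was 0.804 times as high in OEA8_67, a log2 fold change of -0.31 ± 0.05 (SE, adjusted p = 0.00136). In OEA8_69 it was 0.492 times as high, with a log2 fold change of -1.01 ± 0.05 (adjusted p = 4.14e-08). The step from OEA8_67 to OEA8_69 was -0.70 ± 0.05 (adjusted p = 2.33e-05), and it ranked 20 of the 12012 tested genes by the size of that difference.

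Mmp13 (collagenase-3, chr9:7272514-7283333) cleaves fibrillar collagen. It measured 14.3, 12.8 and 13.9 FPKM for OEA8_Ctrl, 10.3, 8.96 and 9.57 FPKM for OEA8_67, and 7.03, 6.34 and 6.39 FPKM for OEA8_69. As with Mmp3, the groups did not overlap and OEA8_67 lay between the others. Mmp13 changed by -0.47 ± 0.06 on the log2 scale in OEA8_67 (adjusted p = 0.00100) and -0.95 ± 0.06 in OEA8_69 (adjusted p = 1.67e-06), and -0.49 ± 0.06 from OEA8_67 to OEA8_69 (adjusted p = 0.00227). The calls of Mmp3 and Mmp13 held in all 3 comparisons under every setting tried and without any single library. Mmp13 is also a gene of bone and cartilage cells, and 3 of 11 markers of these (Runx2, Sox9 and Col10a1) reached 1 FPKM, with Ibsp at 0 in all libraries. Their list summed to between 20.3 and 21.5 FPKM in OEA8_Ctrl, 24.8 and 25.9 in OEA8_67 and 27.7 and 27.9 in OEA8_69. Sox9 moved most within that sum, at 6.65 to 7.37, 10.6 to 11.4 and 13.0 to 14.0 FPKM, while Col10a1 was lower in both mutants, at 1.65 to 1.95, 1.17 to 1.20 and 1.11 to 1.33 FPKM. The part of these genes in the fall of Mmp13 was not tested.

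Mmp10 (stromelysin-2, chr9:7502342-7510242) is a close relative of Mmp3. It was scarce, at 1.93, 2.70 and 2.62 FPKM for OEA8_Ctrl, 1.85, 2.00 and 1.95 FPKM for OEA8_67, and 0.660, 0.780 and 1.24 FPKM for OEA8_69. Here only OEA8_69 stood apart, since the OEA8_67 libraries overlapped those of OEA8_Ctrl. The log2 fold change in OEA8_67 was -0.21 with a 95% interval from -0.47 to 0.04 (adjusted p = 0.282), so a drop of the size seen for Mmp3 in OEA8_67 lies inside it. In OEA8_69 it was -0.86 ± 0.12 (adjusted p = 0.000577), and the mean FPKM was 0.370 times the control. Against OEA8_67 it was -0.64 ± 0.12 (adjusted p = 0.0128). The added 1 FPKM shrinks the change of so low a gene, and with 0.1 FPKM added in its place the log2 fold change in OEA8_69 was -1.37. The difference between the mutants was no longer called without OEA8_67 replicate 2 or 3 or OEA8_69 replicate 1 or 2 (adjusted p from 0.0546 to 0.0623), nor when no filter on low genes was used (adjusted p = 0.0512).

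Mmp9 (gelatinase B, chr2:164940326-164955850) degrades basement membrane collagen and denatured collagen, and is made in quantity by leukocytes. It stood at 26.7, 24.4 and 25.3 FPKM for OEA8_Ctrl, 15.7, 16.9 and 14.4 FPKM for OEA8_67, and 13.8, 14.5 and 14.6 FPKM for OEA8_69. Both mutants lay below all control libraries, and they overlapped each other. Against OEA8_Ctrl its log2 fold change was -0.67 ± 0.06 in OEA8_67 (adjusted p = 2.41e-05), the largest of the 10 genes in that comparison, and -0.79 ± 0.06 in OEA8_69 (adjusted p = 4.03e-06). The difference between the mutants was -0.12 with a 95% interval from -0.25 to 0.01 (adjusted p = 0.289), which contains neither the step of Mmp3 nor that of Mmp13. As Mmp9 is a leukocyte gene, the leukocyte markers are given beside it. Of 12 neutrophil genes 2 reached 1 FPKM (Lcn2 and Camp) with a median over the list of 0.0239 FPKM, and the list summed to between 778 and 1002 FPKM in OEA8_Ctrl, 796 and 809 in OEA8_67 and 843 and 937 in OEA8_69. Lcn2, which fibroblasts can also express, made up most of it, at a mean of 853 FPKM. Of 11 macrophage genes 3 did (Cd14, Lyz2 and Cd68), and their list summed to between 39.4 and 41.9 FPKM in OEA8_Ctrl, 33.9 and 35.8 in OEA8_67 and 33.3 and 36.0 in OEA8_69. The part of these marker genes in the fall of Mmp9 was not tested. In such bulk libraries fewer cells of a type and less RNA per cell cannot be told apart.

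Mmp2 and Mmp14 work together, since Mmp14, a membrane-anchored enzyme, activates the Mmp2 precursor at the cell surface with Timp2 as a bridge. Mmp2 (gelatinase A, chr8:92827290-92853421) was at 526, 514 and 527 FPKM for OEA8_Ctrl, 499, 490 and 458 FPKM for OEA8_67, and 581, 562 and 558 FPKM for OEA8_69. The OEA8_67 libraries all lay below the control range and the OEA8_69 libraries all above it. Neither shift passed the test on its own, with log2 fold changes of -0.11 (95% interval -0.21 to -0.02, adjusted p = 0.143) and 0.12 (0.02 to 0.22, adjusted p = 0.129). Set against each other, OEA8_69 was higher than OEA8_67 by 0.23 ± 0.05 on the log2 scale (adjusted p = 0.0194). That call was lost without OEA8_67 replicate 2 or 3, or without any 1 of the OEA8_69 libraries (adjusted p from 0.0591 to 0.105).

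Mmp14 (chr14:54431598-54442456) was at 223, 215 and 221 FPKM for OEA8_Ctrl, 226, 224 and 223 FPKM for OEA8_67, and 235, 217 and 233 FPKM for OEA8_69. The groups overlapped in every pairing. Its log2 fold change was 0.03 in OEA8_67 (95% interval -0.06 to 0.12, adjusted p = 0.690) and 0.05 in OEA8_69 (-0.04 to 0.14, adjusted p = 0.486), and 0.02 between the mutants (-0.07 to 0.11, adjusted p = 0.828). A change as large as that of Mmp3 or Mmp13 lies outside these intervals.

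Mmp11 (stromelysin-3, chr10:75923221-75932502, reverse strand) is unusual in being activated inside the cell by furin. Its libraries gave 58.2, 57.0 and 59.0 FPKM for OEA8_Ctrl, 46.9, 47.4 and 45.0 FPKM for OEA8_67, and 54.8, 51.6 and 52.3 FPKM for OEA8_69. The order of the mutants was therefore the opposite of that seen for Mmp3, with OEA8_67 lowest. Mmp11 fell by 0.32 ± 0.04 on the log2 scale in OEA8_67 (adjusted p = 0.000495). In OEA8_69 the log2 fold change was -0.13 ± 0.04 (adjusted p = 0.0617), which passed the test with median-of-ratios scaling (adjusted p = 0.0401). OEA8_69 was higher than OEA8_67 by 0.18 ± 0.04 (adjusted p = 0.0354), and this call was lost without any 1 of the mutant libraries or without OEA8_Ctrl replicate 1 (adjusted p from 0.0526 to 0.147). The gene shares 155 exon bases with Chchd10 on the opposite strand, and the sources do not state whether reads were counted by strand.

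Mmp19 (chr10:128790910-128800827), a widely expressed member of the family, measured 20.8, 20.5 and 20.2 FPKM for OEA8_Ctrl, 20.8, 21.0 and 21.3 FPKM for OEA8_67, and 22.7, 22.1 and 21.2 FPKM for OEA8_69. Both mutants lay just above the control range. Its log2 fold change was 0.04 in OEA8_67 (95% interval -0.05 to 0.13, adjusted p = 0.611) and 0.10 in OEA8_69 (0.01 to 0.19, adjusted p = 0.156), and 0.06 between the mutants (-0.03 to 0.15, adjusted p = 0.439). It overlaps genes on the opposite strand over 1001 exon bases, Gm47093 and Tmem198b.

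Timp1 (chrX:20870166-20874737) encodes a secreted inhibitor that acts on most metalloproteinases. It measured 734, 730 and 814 FPKM for OEA8_Ctrl, 652, 657 and 668 FPKM for OEA8_67, and 588, 610 and 575 FPKM for OEA8_69. The groups did not overlap, and the highest value came from OEA8_Ctrl replicate 3. It was lower in OEA8_69 by a log2 fold change of -0.36 ± 0.05 (adjusted p = 0.000898). In OEA8_67 the log2 fold change was -0.20 ± 0.05 (adjusted p = 0.0340), a call that was lost in several settings, among them the model of only these 2 groups (adjusted p = 0.0865) and the model without OEA8_Ctrl replicate 1, without any 1 of the OEA8_67 libraries or without OEA8_69 replicate 1 or 3 (adjusted p from 0.0506 to 0.117). The difference between the mutants was -0.16 with a 95% interval from -0.27 to -0.05 (adjusted p = 0.120), and it was called without OEA8_Ctrl replicate 3 (adjusted p = 0.0178) and in the model of only the mutants (adjusted p = 0.0257).

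Timp3 (chr10:86300412-86349505) encodes the inhibitor that stays bound to the matrix and that also blocks Adam17. It was at 78.6, 73.5 and 69.0 FPKM for OEA8_Ctrl, 69.9, 69.8 and 67.2 FPKM for OEA8_67, and 71.7, 70.7 and 70.0 FPKM for OEA8_69. Both mutants fell within or just below the wide control range. Timp3 had a log2 fold change of -0.09 in OEA8_67 (95% interval -0.20 to 0.01, adjusted p = 0.251) and -0.05 in OEA8_69 (-0.16 to 0.05, adjusted p = 0.522). Between the mutants it was 0.04 (-0.07 to 0.14, adjusted p = 0.702). Timp3 lies within Syn3, which runs on the opposite strand and shares 1733 exon bases with it.

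**Figure D3:**
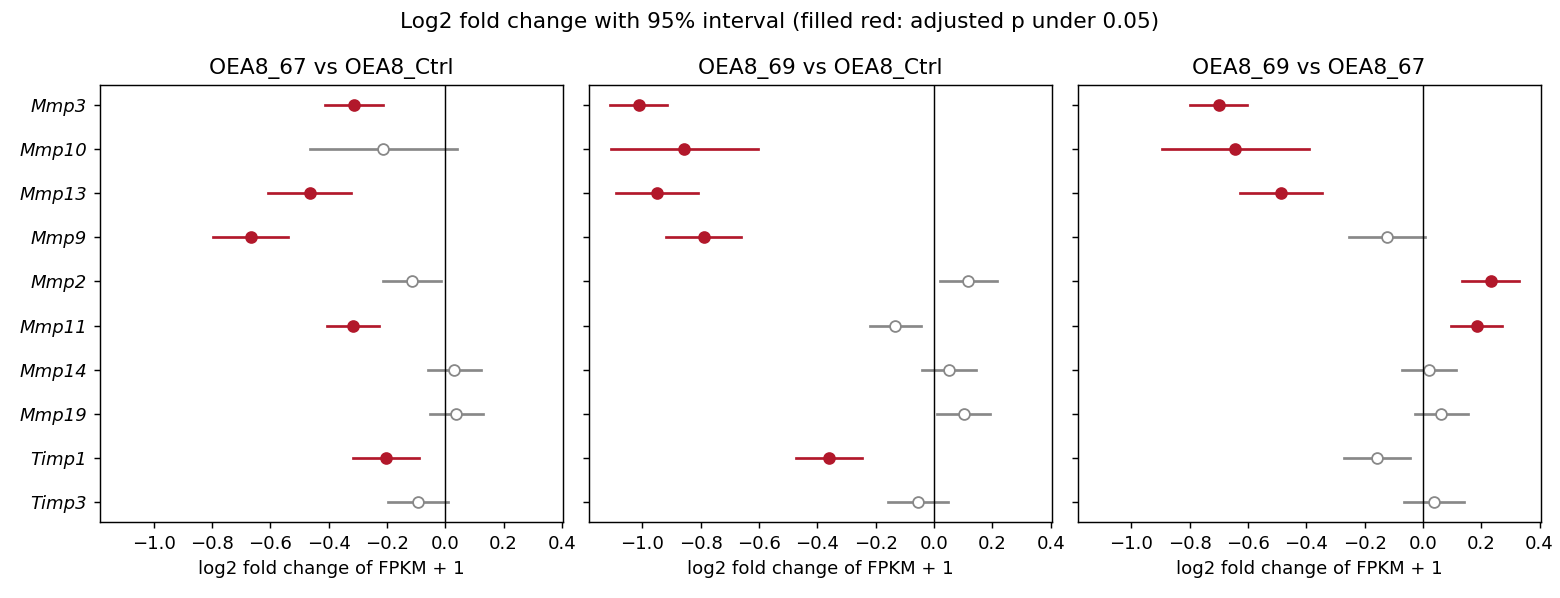
Log2 fold change of FPKM + 1 (points) with its 95% interval (lines) for the 10 genes in the 3 comparisons, and filled red points for an adjusted p under 0.05. Mmp3 and Mmp13 are filled and left of 0 in all 3 panels, Mmp9 is filled only against the control, and Mmp2 and Mmp11 are filled and right of 0 in OEA8_69 against OEA8_67.

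The balance of enzymes and inhibitors at the RNA level was described by summing FPKM, with no test. The 8 Mmp genes together stood at 1024 ± 19.9 FPKM in OEA8_Ctrl, 932 ± 23.4 in OEA8_67 and 971 ± 21.2 in OEA8_69 (SD, n = 3). Timp1 and Timp3 together stood at 833 ± 43.4, 728 ± 6.64 and 662 ± 18.0 FPKM. The ratio of these sums was 1.23 ± 0.05, 1.28 ± 0.04 and 1.47 ± 0.06. Its OEA8_69 libraries (1.40 to 1.51) lay above all others, while those of OEA8_67 (1.23 to 1.32) overlapped those of OEA8_Ctrl (1.17 to 1.27). Mmp2 supplied 51.0% of the Mmp sum in OEA8_Ctrl, 51.8% in OEA8_67 and 58.4% in OEA8_69. Without Mmp2 the ratio was 0.603, 0.617 and 0.611, and the groups overlapped. Without Timp1, which leaves Timp3 as the only inhibitor in the sum, it was 13.9, 13.5 and 13.7, and the groups overlapped as well. Within these sums the higher ratio in OEA8_69 was thus not seen when Mmp2 or Timp1 was left out. Timp2, an inhibitor described further on, stood at 732 FPKM in OEA8_Ctrl, 670 in OEA8_67 and 644 in OEA8_69. It was not part of the sums, and a ratio that includes it was not computed. The make-up of the Mmp sum moved further, since Mmp3 RNA amounted to 30.9% of Mmp2 RNA in OEA8_Ctrl, 27.0% in OEA8_67 and 14.0% in OEA8_69.

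**Figure D4:**
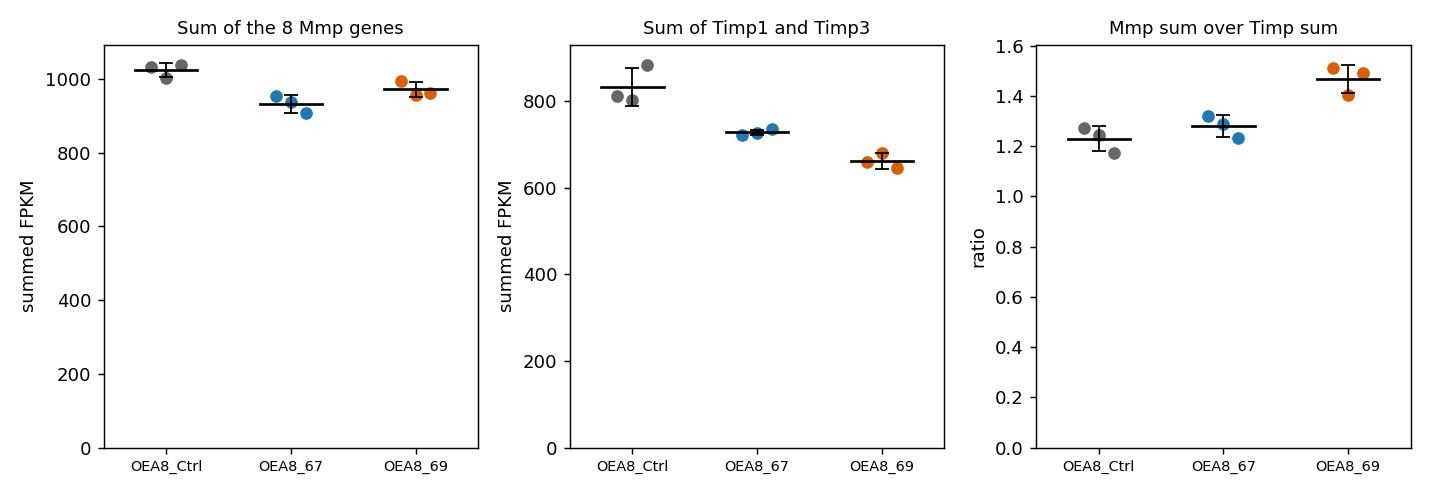
Summed FPKM of the 8 Mmp genes (left) and of Timp1 and Timp3 (middle), and the ratio of these sums (right), per library (points) with the group mean and SD (n = 3). The Timp sum is lowest in OEA8_69, where the ratio is 1.40 to 1.51 against 1.17 to 1.27 in OEA8_Ctrl.

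Mmp3, Mmp10 and Mmp13 belong to a run of 10 Mmp genes of the table that covers chr9:7272514-7699585. In order these are Mmp13, Mmp12, Mmp1b, Mmp3, Mmp1a, Mmp10, Mmp8, Mmp27, Mmp20 and Mmp7, and 4 of them (Mmp13, Mmp3, Mmp1a and Mmp10) were expressed highly enough to be tested. Mmp1a, the mouse relative of human interstitial collagenase, was named after its values were seen. It measured 2.42, 2.55 and 2.43 FPKM for OEA8_Ctrl, 0.600, 0.360 and 0.780 FPKM for OEA8_67, and 0.0800, 0.240 and 0.180 FPKM for OEA8_69. Its 3 groups did not overlap, and OEA8_67 lay between the others, as for Mmp3 and Mmp13. Mmp1a passed the filter on its mean over all libraries through the high level in OEA8_Ctrl, so its fall against the control is given as a description, with log2 fold changes of -1.14 in OEA8_67 and -1.57 in OEA8_69. With 0.1 FPKM added these were -1.97 and -3.32. The mutants alone averaged 0.580 and 0.167 FPKM, so the test between them also rests on a gene kept through OEA8_Ctrl. The difference between the mutants was -0.43 ± 0.10 (adjusted p = 0.0389), or -1.35 with 0.1 FPKM added (adjusted p = 0.0219). This call was lost without OEA8_Ctrl replicate 1, OEA8_67 replicate 1 or 3, or any 1 of the OEA8_69 libraries (adjusted p from 0.0583 to 0.144) and when no filter was used (adjusted p = 0.0715).

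Mmp12 and Mmp1b were below the filter and were not tested. Mmp12, a macrophage elastase, averaged 0.473, 0.160 and 0.173 FPKM in OEA8_Ctrl, OEA8_67 and OEA8_69. Mmp1b, a near copy of Mmp1a, averaged 0.687, 0.240 and 0.0967 FPKM. Reads of Mmp1a and Mmp1b may have been divided between the copies, and Mmp1b also shares 157 exon bases with Mmp12 on the opposite strand, so these low values are uncertain. The other 4 genes of the run averaged under 0.06 FPKM in every group. On either side of the run, Dcun1d5 stood at 27.7, 26.9 and 27.4 FPKM in the 3 groups and Tmem123 at 39.7, 39.5 and 38.7 FPKM.

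**Figure D5:**
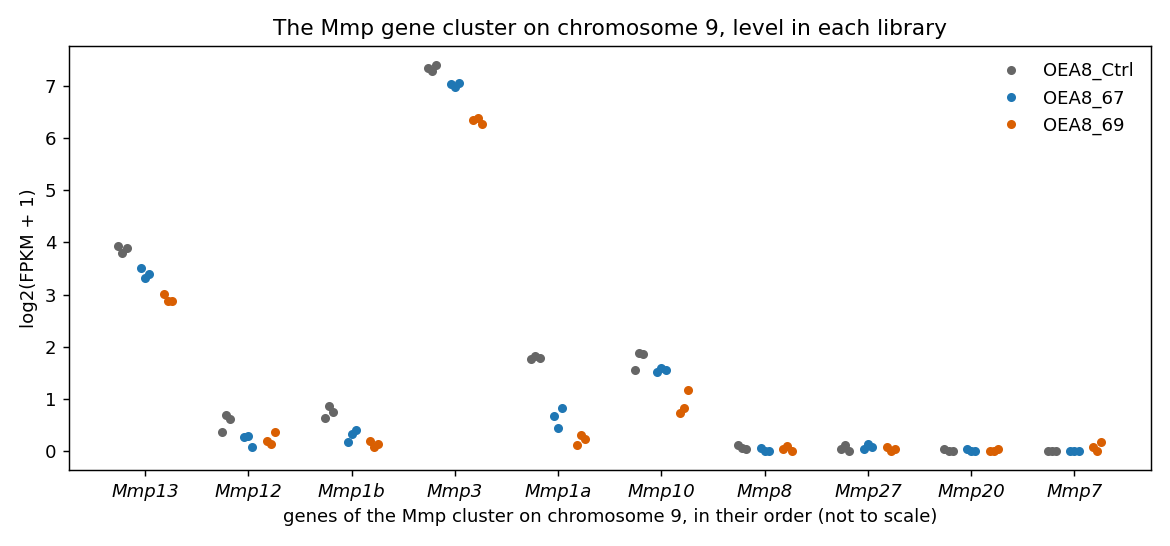
Log2(FPKM + 1) of the 10 Mmp genes of the chromosome 9 run in the 9 libraries (points), in the order of the genes along the chromosome, which is not drawn to scale. Mmp13, Mmp3 and Mmp1a step down from OEA8_Ctrl through OEA8_67 to OEA8_69, Mmp10 is low only in OEA8_69, and Mmp8, Mmp27, Mmp20 and Mmp7 lie near 0 throughout.

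Among all tested genes, the 3 whose pattern over the 9 libraries was most like that of Mmp3 were Mmp13, Pdpn and Ccbe1. Likeness was the root mean square difference of log2(FPKM + 1) values centred on each gene's mean, and it came to 0.107, 0.145 and 0.152, beside 0.426 for Mmp3 against a flat line. Pdpn, the gene of podoplanin, a surface glycoprotein of fibroblasts and lymphatic endothelium, ran from 61.6 to 65.2 FPKM in OEA8_Ctrl, 41.0 to 44.5 in OEA8_67 and 30.8 to 34.7 in OEA8_69. Ccbe1, which codes for a secreted factor of lymphatic vessel growth, ran from 5.50 to 6.03, 3.79 to 3.97 and 2.34 to 2.99 FPKM. Mmp10 came ninth at 0.177. Among the 10 genes themselves the closest pair was Mmp14 and Mmp19, at 0.0478, both nearly flat. The likeness compares the same 9 libraries that share their controls, and carries no test.

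Genes that work with these 10 were counted by list, and the median log2 fold change of each list is given for OEA8_67 and then OEA8_69 against OEA8_Ctrl. Over all tested genes 7.88% were called in OEA8_67 and 9.79% in OEA8_69. Of 15 other Mmp genes in the table, 5 could be tested (Mmp1a, Mmp16, Mmp23, Mmp24 and Mmp28). Mmp1a passed the filter through OEA8_Ctrl, so its lower values in both mutants are a description and are not counted as calls. The other 4 were called in neither comparison (list medians -0.07 and -0.02, with Mmp1a included). Of 4 other inhibitors 2 could be tested (list medians -0.07 and -0.06). Timp2, the inhibitor that helps Mmp14 activate Mmp2, was at 732 ± 18.6 FPKM in OEA8_Ctrl, 670 ± 2.57 in OEA8_67 and 644 ± 6.32 in OEA8_69, and was called lower in OEA8_69 (log2 fold change -0.18 ± 0.04, adjusted p = 0.0149) but not in OEA8_67 (-0.13 ± 0.04, adjusted p = 0.0825). Reck, a membrane-anchored inhibitor, passed in neither (log2 fold change -0.01 and 0.07, adjusted p = 0.957 and 0.506).

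Among proteases of the Adam and Adamts families, which share the metalloproteinase fold, 17 of 26 were tested. Of these 3 were lower and 1 higher in OEA8_67, and 3 were lower and 0 higher in OEA8_69 (list medians -0.06 and -0.06). Beside this, 4.66% of all tested genes were lower and 3.21% higher in OEA8_67, and 5.24% and 4.55% in OEA8_69. Adam8, a membrane protease, dropped from 6.02 ± 0.231 FPKM to 1.38 ± 0.0666 in OEA8_67 and 0.890 ± 0.0458 in OEA8_69 (log2 fold changes -1.56 and -1.89), and was lower in OEA8_69 than in OEA8_67 (-0.33 ± 0.06, adjusted p = 0.0159). Adam15, of the same family, was lower in OEA8_67 (log2 fold change -0.39 ± 0.06, adjusted p = 0.00127) and in OEA8_69 (-0.39 ± 0.06, adjusted p = 0.000861). Adamts2, which trims procollagen, was lower in OEA8_67 (-0.23 ± 0.05, adjusted p = 0.0140) and higher in OEA8_69 than in OEA8_67 (0.36 ± 0.05, adjusted p = 0.00261). The direction of Adamts2 between the mutants was that of Mmp2 and Mmp11.

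Of 7 tested genes listed for the activation of Mmp precursors, 3 were lower in OEA8_67 and 2 in OEA8_69, with 0 higher in either (list medians -0.08 and -0.09). The shares of all tested genes that were lower were 4.66% and 5.24%. Plaur, the receptor that holds urokinase at the cell surface, went from 16.1 ± 0.546 FPKM to 10.9 ± 0.707 and 9.50 ± 0.128, with log2 fold changes of -0.52 and -0.70. Plau, urokinase itself, changed by -0.42 ± 0.07 (adjusted p = 0.00483) and -0.39 ± 0.07 (adjusted p = 0.00581). Prss23 was called in OEA8_67 (-0.18 ± 0.05, adjusted p = 0.0348). Furin was called in neither mutant (0.06 and 0.03, adjusted p = 0.480 and 0.699), and nor were Pcsk6, Pcsk7 and Plat.

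Among 7 other tested matrix proteases 3 were lower in OEA8_67 and 3 in OEA8_69 (list medians -0.15 and -0.12), beside 4.66% and 5.24% of all tested genes. Ctsl, a lysosomal cysteine protease, changed by -0.24 ± 0.04 and -0.23 ± 0.04 (adjusted p = 0.00422 and 0.00455), Ctsd by -0.15 ± 0.04 in both (adjusted p = 0.0496 and 0.0456), and Htra1 by -0.30 ± 0.06 in OEA8_67 (adjusted p = 0.00671). Of 19 tested matrix substrates of these enzymes 5 were lower and 1 higher in OEA8_67, and 6 lower and 1 higher in OEA8_69 (list medians -0.03 and -0.09). The shares of all tested genes were 4.66% lower and 3.21% higher in OEA8_67, and 5.24% and 4.55% in OEA8_69. Tnc, the gene of tenascin C, went from 132 ± 11.3 FPKM to 58.7 ± 2.23 and 42.6 ± 1.76, and Col4a1, a basement membrane collagen, from 243 ± 9.39 to 194 ± 2.65 and 159 ± 3.24. Both were lower in OEA8_69 than in OEA8_67 (adjusted p = 0.00227 for Tnc and 0.00388 for Col4a1). Dcn, the small proteoglycan decorin, went from 265 ± 4.78 to 174 ± 4.55 and 206 ± 8.83 FPKM, lower in OEA8_67 than in OEA8_69 (adjusted p = 0.0124).

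At the cell surface 9 partners or substrates were tested, and 1 was lower in OEA8_67 and 2 in OEA8_69 (list medians -0.09 and -0.10). Since 7.88% and 9.79% of all tested genes were called, counts this small are no result about the list as a set. Cav1, the gene of caveolin-1, was lower in both (log2 fold change -0.37 ± 0.04 and -0.35 ± 0.04, adjusted p = 0.000192 and 0.000187) and Itgb3, an integrin subunit, in OEA8_69 (-0.48 ± 0.05, adjusted p = 0.000144).

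All 20 transcription factor genes known to act on Mmp promoters were tested. In OEA8_67 2 were lower and 2 higher, and in OEA8_69 3 were lower and 2 higher (list medians 0.04 and -0.01). All tested genes gave 4.66% lower and 3.21% higher in OEA8_67, and 5.24% and 4.55% in OEA8_69. Erg, an Ets factor known from endothelium, went from 42.8 ± 0.966 FPKM to 6.35 ± 0.695 and 3.51 ± 0.356 (log2 fold changes -2.58 and -3.28), and was lower in OEA8_69 than in OEA8_67 (-0.70 ± 0.08, adjusted p = 0.000744). Fosl1, an AP-1 subunit, went from 29.7 ± 1.95 FPKM to 25.4 ± 1.72 and 19.0 ± 1.29, and was called in OEA8_69 (log2 fold change -0.62 ± 0.07, adjusted p = 7.92e-05) but not in OEA8_67 (-0.22 ± 0.07, adjusted p = 0.0657). It was also lower in OEA8_69 than in OEA8_67 (-0.40 ± 0.07, adjusted p = 0.00771). Jun, its partner, was lower in both mutants (-0.23 ± 0.04 and -0.22 ± 0.04, adjusted p = 0.00820 and 0.0101). The 2 that were higher in OEA8_69 were the AP-1 genes Fos (0.34 ± 0.06, adjusted p = 0.00638) and Junb (0.26 ± 0.06, adjusted p = 0.0113), named after their values were seen, so AP-1 genes moved in both directions. The 2 that were higher in OEA8_67 were the Ets genes Etv1 (0.33 ± 0.06, adjusted p = 0.00902) and Etv5 (0.22 ± 0.05, adjusted p = 0.0185). These were also named after their values were seen, and Ets genes thus moved in both directions too. Of 11 endothelial marker genes 3 reached 1 FPKM (Cdh5, Flt1 and Egfl7), and their list summed to between 28.6 and 29.6 FPKM in OEA8_Ctrl, 8.57 and 10.1 in OEA8_67 and 8.34 and 10.1 in OEA8_69. This sum was lower in both mutants than in OEA8_Ctrl and overlapped between them, and Vwf and Esam, at a mean of 0.0811 and 0.0722 FPKM, overlapped between all groups. The list of hematopoietic stem and progenitor genes also summed to less in the mutants (336 to 356 FPKM in OEA8_Ctrl, 220 to 232 in OEA8_67 and 233 to 242 in OEA8_69). Ly6a moved most within that sum, at 199 to 221, 113 to 126 and 133 to 139 FPKM, and Cd34 and Procr were also lower in both mutants. Gata2 was higher in both, at 39.7 to 43.5, 47.9 to 48.3 and 45.4 to 48.3 FPKM, as was Hlf, while Runx1 and Meis1 overlapped between all groups. The part of the endothelial and stem cell markers in the fall of the Mmp genes was not tested.

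Of 20 tested ligands and receptors known to act on Mmp genes, 5 were lower and 1 higher in each mutant (list medians -0.07 and -0.06). Across all tested genes 4.66% were lower and 3.21% higher in OEA8_67, and 5.24% and 4.55% in OEA8_69. Hbegf, an EGF-family growth factor, went from 19.2 ± 0.133 FPKM to 12.3 ± 0.232 and 9.51 ± 0.263 (log2 fold changes -0.60 and -0.94), and was lower in OEA8_69 than in OEA8_67 (-0.34 ± 0.04, adjusted p = 0.00202). Pdgfb, a mitogen of fibroblasts, went from 9.28 ± 0.577 FPKM to 5.43 ± 0.165 and 4.80 ± 0.538. Pdgfra, a receptor for such mitogens, went from 42.9 ± 3.46 FPKM to 31.6 ± 1.02 and 35.7 ± 0.669 (adjusted p = 0.000542 and 0.0122). Between the mutants, OEA8_69 was lower than OEA8_67 for 3 transcription factors, 2 ligands or receptors, 2 surface genes, 3 substrates and 1 Adam or Adamts gene (Adam8). It was higher for 2 substrates, 2 Adam or Adamts genes and 1 matrix protease (Htra1, 0.24 ± 0.06, adjusted p = 0.0452). In that comparison 1.27% of all tested genes were lower and 1.89% higher. Mmp1a, kept by the filter through OEA8_Ctrl, was lower in OEA8_69 and is not counted here. All of these lists were chosen with results of these libraries known, and their counts stand beside the background shares given for each comparison above.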

How the data were processed

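RNA-seq was performed on 9 mouse libraries, 3 per group, grouped by their labels. TRIzol-extracted RNA was sequenced on a DNBSEQ platform, per the labels. Tools in the submitters' processing notes are Bowtie2 2.2.5 and HISAT2 2.0.4, with the genome build mm10, and the study's methods add RSEM (version not given in the sources used). The authors deposited FPKM for each gene and library. FPKM is relative to the fragments mapped in a library, so a rise of abundant genes lowers all others. Whole reads could not be recovered from the low values, so read depth is unknown and no count model or counting interval was used. The authors' group means served only to check the columns.

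Values were transformed to log2(FPKM + 1), which understates the change of low genes. The 12012 genes averaging at least 0.5 FPKM were fitted in a single limma 3.58.1 model with trended moderation (R 4.3.3) over all 9 libraries, with Benjamini-Hochberg adjustment over all of them and a threshold of 0.05. An exact permutation test of 3 against 3 libraries cannot go below p = 0.1 and was not used. The study's methods name no test specific to these comparisons. On simulated data for OEA8_69 against OEA8_Ctrl (12012 genes, 5 rounds) the procedure recovered 38.4% of log2 changes of 0.25, 90.8% of 0.5 and 99.2% of 1, and 4.98% of calls were false. The simulated noise was independent and normal with each gene's fitted spread, as the test itself assumes, and a smaller share of genes was changed than was called in the data. These rates therefore do not cover linked genes or replicates that were not separate cultures.

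The 10 genes, the pathway and marker lists and the tests were chosen with earlier results of these data known. Beside the 10 genes, the text names up to 3 called genes of each list, by the smallest adjusted p of the moderated F test over the 3 groups, and the 3 genes most like Mmp3, the member with the largest log2 fold change in OEA8_69 when 1 FPKM is added (with 0.1 FPKM added those of Mmp10 and Mmp13 are larger, at -1.37 and -1.04 against -1.02). The search for like genes skipped predicted genes and those named after clones. The result of 1 listed gene, and the list it belonged to, are not reported here. Mmp1a and its neighbours, Fos, Junb, Etv1, Etv5 and the marker genes fall outside this rule or were added after their values were seen. Gene positions and promoters are from RefSeq on GRCm38.p6, with promoters matched for 7 of the 10 genes. Gene strands and exon overlaps are from the GENCODE annotation of GRCm38. Alternatives were other pseudocounts, filters, scaling and moderation, a model of only the 2 compared groups, the replicate number as a block, and leaving out each library. Figures were drawn with Python 3.11.15 and matplotlib 3.10.9.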

Additional observations from a re-analysis of the deposited data

Results flagged for a closer look

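Mmp2 stood out because the mutants departed from the control in opposite directions. All 3 OEA8_67 libraries (458 to 499 FPKM) lay below the OEA8_Ctrl range of 514 to 527 FPKM, and all 3 OEA8_69 libraries (558 to 581 FPKM) lay above it. The difference OEA8_69 minus OEA8_67 was 0.23 on the log2 scale (95% interval 0.13 to 0.33, adjusted p = 0.0194 by limma), and neither mutant passed the test against OEA8_Ctrl. The call did not survive leaving out 5 of the 9 libraries in turn, where the difference lay between 0.20 and 0.24.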

How the results depend on the processing

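The direction of every fold change of the 10 genes was kept under all alternatives, except that of Mmp14 between the mutants, which was 0.02 and lay between -0.00103 and 0.0574 without 1 library, below 0 only without OEA8_69 replicate 1. Calls of Mmp3 and Mmp13 in all 3 comparisons, of Mmp9 and Mmp11 in OEA8_67 against OEA8_Ctrl, and of Mmp9, Mmp10 and Timp1 in OEA8_69 against OEA8_Ctrl were kept under every alternative in which the gene was tested (Mmp10 was not at a filter of 5 FPKM). The number of genes called over the whole table was 946 in OEA8_67 against OEA8_Ctrl and 607 when only these groups were modelled. Between the mutants it was 379, and 210 with no filter, 976 with only these groups and 242 with the replicate number as a block. Leaving out each library in turn gave 456 to 1048 genes in OEA8_67 against OEA8_Ctrl, 745 to 1794 in OEA8_69 against OEA8_Ctrl and 123 to 1034 between the mutants, highest without OEA8_Ctrl replicate 3 in the last 2. Of the 10 genes 2 to 6 were then called between the mutants, 2 without OEA8_67 replicate 2 or 3 or OEA8_69 replicate 1 or 2, and 6 without OEA8_Ctrl replicate 3. The causes were not tested. Replicate numbers did not pair the libraries, since the correlation of deviations between same-numbered libraries ran from -0.25 to 0.15. With the number as a block, the adjusted p was 0.0610 for Timp1 in OEA8_67 and 0.0642 for Mmp11 between the mutants, both no longer called, and no other call of the 10 genes changed. That of Mmp1a between the mutants was 0.0635. Timp1 in OEA8_67 had an adjusted p of 0.0700 with no filter, Mmp11 between the mutants 0.0667 with untrended moderation, and Timp1 between the mutants was called with only these groups modelled (0.0257).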

Other observations

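Genes that move with interferon signalling or with cell division were listed beside the Mmp genes. Of 11 tested interferon-stimulated genes 2 were lower in OEA8_67 and 3 in OEA8_69, and 0 were higher in either (list medians -0.72 and -0.91), beside 4.66% and 5.24% of all tested genes lower. Ifi27 was called in both, with log2 fold changes of -0.48 ± 0.09 (adjusted p = 0.00916) and -0.40 ± 0.09 (adjusted p = 0.0191). Bst2, which codes for the surface protein tetherin, was called in OEA8_69 (-0.91 ± 0.23, adjusted p = 0.0287), where its libraries spread widely (184 ± 61.1 FPKM, against 334 ± 5.08 in OEA8_Ctrl). Zbp1 was called in OEA8_67 (-1.07 ± 0.28, adjusted p = 0.0388). Of 14 cell cycle genes 5 were higher in OEA8_67, beside 3.21% of all tested genes (list medians 0.15 in OEA8_67 and 0.08 in OEA8_69). Mcm4, a subunit of the replicative helicase, stood at 35.3 ± 0.934 FPKM in OEA8_Ctrl, 43.9 ± 1.73 in OEA8_67 and 37.7 ± 1.08 in OEA8_69, and was lower in OEA8_69 than in OEA8_67 (-0.21 ± 0.04, adjusted p = 0.0260). Mcm2 and the spindle checkpoint kinase gene Bub1 were also higher in OEA8_67, by 0.28 ± 0.05 each on the log2 scale (adjusted p = 0.00370 and 0.00613). No lymphoid or epithelial marker reached 1 FPKM, of 8 listed in the table for each.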
